A study of Arabidopsis thaliana with 9 samples.

Results

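AT1G59920 and AT1G59930 are neighbouring Arabidopsis thaliana loci on chromosome 1, each annotated as a MADS-box family protein, and they were 2 of the 33602 loci in the deposited tables. They were selected on their measured levels in these same libraries, high in ddm1 and low in the other leaves, so their levels and fold changes are given as a description with no test. RNA was measured in leaves of plants 4 to 5 weeks old, in 3 groups of 3 libraries that the labels call independent biological replicates. The groups were wild-type Col-0, the F1 of a cross of Col-0 with ddm1, which carried 1 mutant and 1 intact DDM1 allele, and ddm1(-/-) plants of the second generation. The sources used here do not give the ddm1 allele or which parent was the mother of the F1. The series set out to follow transposon expression in these genotypes.

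MADS-box proteins are transcription factors named for a DNA-binding domain at their amino end. The type I class is small, often intronless, and in Arabidopsis is known mainly from the female gametophyte and the developing seed, where members such as PHERES1 (PHE1) and AGL36 are imprinted, that is, expressed from the copy of 1 parent. DDM1 is a chromatin remodelling ATPase that keeps transposons and other repeats methylated and silent, and in Arabidopsis loss of methylation can persist at a locus after a functional DDM1 allele is restored. The RefSeq annotation notes AT1G59930 as a maternally expressed imprinted gene.

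The pair lay in a tandem duplication. On TAIR10.1, whose nuclear coordinates are those of TAIR10, AT1G59920 spanned chromosome 1 positions 22059424 to 22059842 and AT1G59930 positions 22060924 to 22061516, both on the minus strand, each as a lone exon, with 1081 bp between them. The coding sequences ran from 22059424 to 22059822 and from 22061083 to 22061481. Each belonged to a repeated unit, of 1396 bp (22059083 to 22060478) for AT1G59920 and 1405 bp (22060733 to 22062137) for AT1G59930, and the units were 93.8% identical over 1417 alignment columns. Identity within the units was 99.2% over the 656 bp upstream of the start codons and 78.5% over the 362 columns downstream of the coding sequences.

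**Figure D1:**
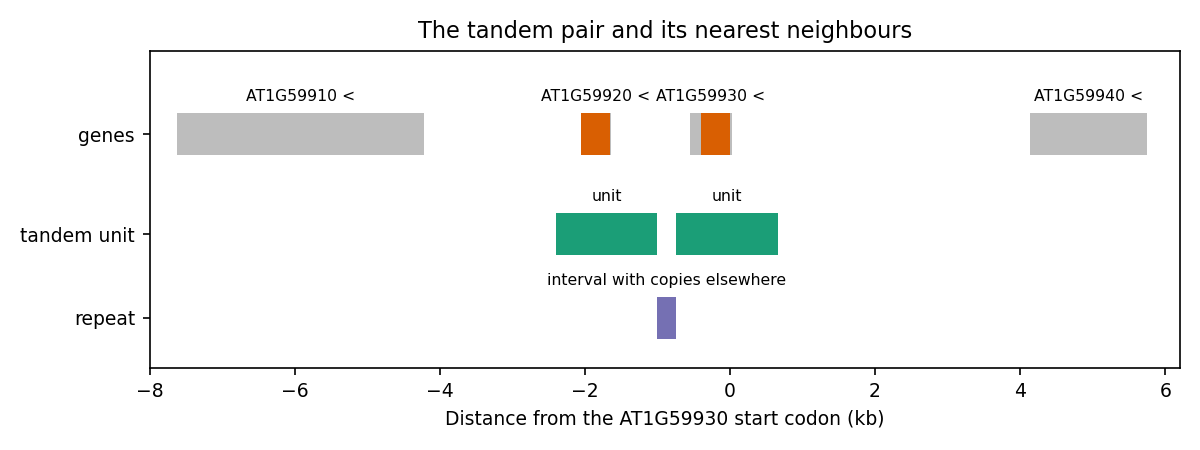
Map of the tandem pair and its nearest annotated neighbours, drawn to scale as distance in kb from the AT1G59930 start codon. Grey boxes are annotated genes, all on the minus strand (<), orange the coding sequences, green the 2 repeated units and purple the 254 bp interval between them. The pair stands alone in the 8348 bp between AT1G59910 and AT1G59940.

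The coding sequences were both 399 bases long and differed at 5 of them, so 98.7% of bases were identical. Counted from the first coding base, with the AT1G59920 base first, the differences were A280G, C318T, T326C, A343G and A387C, of which 3 changed the encoded amino acid (A280G, T326C and A343G). The first 279 coding bases were the same in both loci. Coding bases 271 to 399 are shown 5′ to 3′ on the gene strand because they hold every base by which a read can be given to one locus or the other, with the differing bases in capitals.

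AT1G59920 coding bases: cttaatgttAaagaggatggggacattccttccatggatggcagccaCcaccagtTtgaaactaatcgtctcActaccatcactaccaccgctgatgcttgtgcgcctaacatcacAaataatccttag
AT1G59930 coding bases: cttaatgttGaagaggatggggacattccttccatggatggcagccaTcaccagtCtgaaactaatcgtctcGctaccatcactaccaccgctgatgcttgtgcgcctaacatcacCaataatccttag

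The kallisto targets of both loci were as long as these coding sequences, so reads from beyond the coding sequence, where the downstream sides of the loci differ more, were not counted. Of the 350 places where a 50-base read can start in the coding sequence, 120 (34.3%) gave a read that differed between the loci. No 50-base word of either coding sequence occurred elsewhere in the genome. Kallisto, however, matches words of 31 bases by default, and of the 469 distinct words of that length in the coding sequences, 20 also occurred in a copy on chromosome 5. The sum of the loci can thus hold reads of that copy, and the share of each locus is an estimate that rests on the 34.3% of positions above.

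The 300 bases upstream of the annotated starts were also near copies. They are shown because both loci were high in the same libraries and because DDM1 acts on DNA methylation, which in plants lies largely at CG pairs, here in capitals. The AT1G59920 window is at chr1:22059843-22060142 and the AT1G59930 window at chr1:22061517-22061816, both read on the minus strand.

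AT1G59920 upstream: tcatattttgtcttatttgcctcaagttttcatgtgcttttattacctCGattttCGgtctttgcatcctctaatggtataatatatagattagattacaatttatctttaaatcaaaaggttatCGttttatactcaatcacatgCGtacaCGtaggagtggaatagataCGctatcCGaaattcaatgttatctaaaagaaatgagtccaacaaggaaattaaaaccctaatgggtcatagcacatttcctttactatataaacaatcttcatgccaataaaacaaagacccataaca
AT1G59930 upstream: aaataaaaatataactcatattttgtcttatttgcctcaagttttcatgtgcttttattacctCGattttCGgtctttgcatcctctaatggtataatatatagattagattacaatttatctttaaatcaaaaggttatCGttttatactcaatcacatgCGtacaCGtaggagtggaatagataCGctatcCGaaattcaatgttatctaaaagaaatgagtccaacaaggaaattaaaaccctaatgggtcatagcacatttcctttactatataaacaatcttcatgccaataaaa

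The windows shared 285 columns at 100% identity, since the annotated starts lie at different points of the same upstream sequence. Each window held 7 CG pairs, and 40.5% of the 27443 protein-coding promoters of that length held at least as many, with a median of 6. The letters TATAAA began 41 bases before the annotated start of AT1G59920 and 26 bases before that of AT1G59930 on the gene strand. TATAAA occurred on the gene strand of 37% of these promoters, so its presence was common. Methylation was not measured in these libraries.

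The sequence around the pair was repetitive beyond the duplication. The 254 bp interval between the units (22060479 to 22060732) had 30 other copies of at least 200 bp and 80% identity, on 4 chromosomes, at 81.3% to 91.5% identity. Of these copies, 26 had an inverted copy within 1500 bp, and 7 overlapped an annotated locus. The 600 bp upstream of the AT1G59930 unit best matched chromosome 5, at chr5:13387846-13388397, with 84.2% identity over 594 columns. That match lay 670 bp from AT5G35120, the closest to the pair of the coding sequences aligned here. The 600 bp upstream of the AT1G59920 unit hold the 254 bp interval and part of the AT1G59930 unit. They did not align to the 600 bp upstream of the other unit. The units were defined to end where their alignment stops, so no conclusion is drawn from this.

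AT5G35120, also annotated as a MADS-box locus, was 92.9% identical to each member over its whole coding sequence of 324 bases. The only other genes aligned to the pair were PHE1 and PHERES2 (PHE2), type I genes of the gamma class. Whether other MADS-box genes are closer was not tested. AT1G59930 aligned to PHE1 at 68.9% identity over 280 columns, from base 248 of the PHE1 coding sequence. It aligned to PHE2 at 72% identity over 264 columns, also from base 248. A second stretch, nearer the 3′ end, aligned to PHE1 bases 706 to 835 at 76.2% and to PHE2 bases 699 to 832 at 76.9%. All these alignments start downstream of the 5′ part of the PHERES coding sequences, which encodes the MADS domain. No part of the members aligned to that part in this search.

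In wild-type leaves the pair was close to the limit of detection. Estimated counts for both loci summed were 17, 13 and 14 in the wild-type libraries, out of 15996806 to 22425699 counts per library over the 9 libraries. In F1 the sums were 36, 63 and 81, above every wild-type library. In ddm1 they were 6188, 4488 and 8682. The groups did not overlap, and every ddm1 library was far above every F1 library.

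Levels are given in CPM, that is, per 1000000 counts of the library with TMM scaling. The summed level was 0.664 ± 0.161 CPM (SD, n = 3) in the wild type, 3.15 ± 0.925 in the F1 and 367 ± 189 in ddm1. The mean was thus 553 times higher in ddm1 than in the wild type, 4.73 times higher in the F1 than in the wild type and 117 times higher in ddm1 than in the F1. In an edgeR fit with both loci as 1 feature, the log2 fold change was 9.10 (SE 0.55) for ddm1 against wild type, 2.24 (SE 0.44) for F1 against wild type and 6.86 (SE 0.49) for ddm1 against F1. These contrasts share libraries. The choice of the loci used these contrasts, in which 7.37%, 23.2% and 16.5% of the 18216 tested loci were called at an adjusted p under 0.05.

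The ddm1 libraries were not alike. The summed level was 259 and 256 CPM in ddm1 libraries 1 and 2 and 586 CPM in library 3, which also stood apart over all genes. Its log2 CPM correlated with the other ddm1 libraries at 0.872 and 0.88 across genes, against 0.963 between those. Without library 3, the ddm1 mean was 258 CPM, 388 times the wild-type mean. The part of whatever sets library 3 apart in the higher level was not tested.

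AT1G59930 took most of the counts. Its estimated counts were 9.27, 6.5 and 14 in the wild type, 36, 59.3 and 78.2 in the F1, and 5831, 4267 and 8186 in ddm1. Its mean level was 0.438 ± 0.155 CPM (SD, n = 3) in the wild type, 3.02 ± 0.824 in the F1 and 347 ± 178 in ddm1. Wild type was lowest, F1 was next and ddm1 was highest, with no overlap between neighbouring groups. The log2 fold change was 9.60 (SE 0.57) for ddm1 against wild type, 2.76 (SE 0.47) for F1 against wild type and 6.84 (SE 0.50) for ddm1 against F1.

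On the TPM scale, which is per length, AT1G59930 ranked high among nuclear loci in ddm1 leaves. Its level was 1175, 1093 and 2333 TPM in the ddm1 libraries, which ranked 9, 10 and 8 among nuclear loci. In wild type it was 2.11, 1.56 and 2.94 TPM, with ranks of 11775, 13662 and 10717. In F1 it was 8.14, 12.3 and 16.6 TPM, with ranks of 4695, 3034 and 2455. Together the loci took 0.0817%, 0.0804% and 0.167% of the nuclear counts of the ddm1 libraries. TPM of so short a target depends on the fragment length used by kallisto, which the sources used here do not give. By mean CPM in ddm1, which is not per length, AT1G59930 ranked 14 among the 1243 loci called higher in ddm1 with a log2 fold change of at least 1. Its rank by CPM among all nuclear loci was not determined. PEN3, a gene within 50 kb, had a mean of 896 CPM in ddm1, against 347 for AT1G59930.

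AT1G59920 was lower than AT1G59930 in every ddm1 and F1 library. Its estimated counts were 7.73, 6.5 and 0 in the wild type, 0, 3.71 and 2.79 in the F1, and 357, 221 and 496 in ddm1. Wild type and F1 overlapped, and the ddm1 libraries stood above both. The mean level was 0.226 ± 0.205 CPM (SD, n = 3) in the wild type, 0.123 ± 0.115 in the F1 and 20.4 ± 11.4 in ddm1. The log2 fold change was 6.50 (SE 0.85) for ddm1 against wild type and 7.29 (SE 0.92) for ddm1 against F1. For F1 against wild type it was -0.79 (SE 1.11), a difference within the spread of the libraries, and the sum of both loci gives 2.24 for the same contrast.

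**Figure D2:**
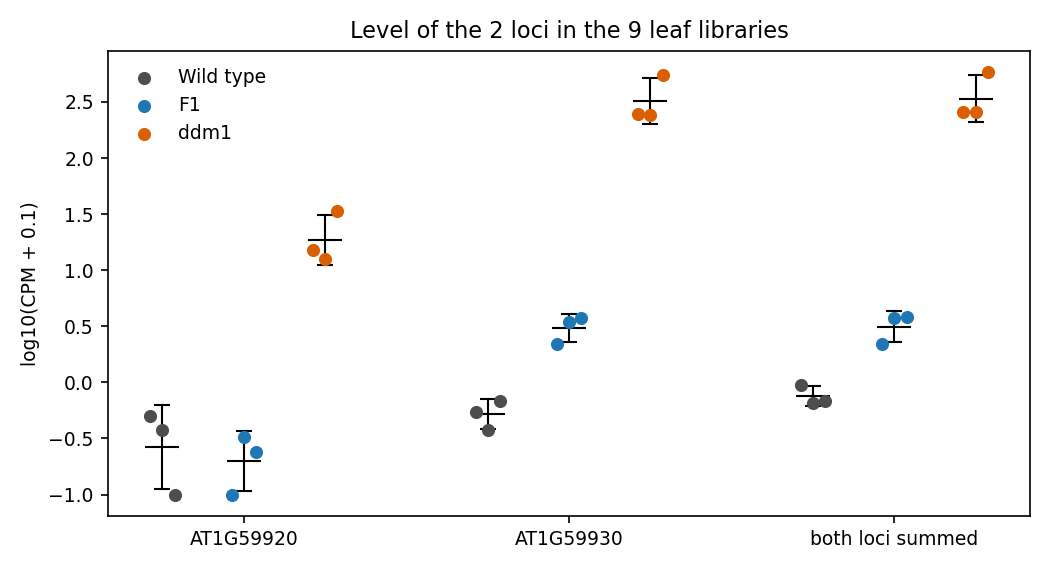
Level of AT1G59920, AT1G59930 and both summed in each library, as log10(CPM + 0.1) with 3 libraries per group. Points are libraries, and bars are the mean and SD of the plotted values. The wild-type and F1 points of AT1G59920 overlap, whereas for AT1G59930 and the sum the order is wild type, F1, ddm1 without overlap.

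The split between the loci was similar across the ddm1 libraries. AT1G59920 held 5.77%, 4.93% and 5.72% of the pair's counts in the ddm1 libraries, or 5.47% ± 0.474 (SD, n = 3). With even coverage of the coding sequence, 1539 to 2977 reads per ddm1 library would be expected to fall where the loci differ. The same share was 45.5%, 50% and 0% in the wild type, where 4.46 to 5.83 such reads would be expected. In F1 it was 0%, 5.88% and 3.45%, with 12.3 to 27.8 such reads expected. The wild-type shares ranged too widely, on too few reads, to be compared with those of ddm1.

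The F1 level can be placed on the scale between the wild-type and ddm1 levels. The F1 position of a locus is the distance of its F1 level from the wild-type mean as a share of the distance of the ddm1 mean from it, with 0 for the level of the wild type, 1 for that of ddm1 and 0.5 for the middle. The pair's F1 position was 0.00677 ± 0.00252 (SD, n = 3), with 0.00386, 0.00803 and 0.00841 in the F1 libraries. That SD covers the spread of the F1 libraries alone, with the wild-type and ddm1 means held fixed. The F1 mean was 0.856% of the ddm1 mean. The median over the 1241 other loci called higher in ddm1 with a log2 fold change of at least 1 was 0.298, and 60 of them (4.83%) had a lower position than the pair.

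The pair was selected on these levels, so its position and its place among other loci are a description and no evidence that it stands apart. Where a locus has few counts in ddm1, a few F1 reads would move its position, so loci of higher ddm1 level were also taken apart. That limit is set on the ddm1 level, which also enters the position. Among the 77 other loci with at least 100 CPM in ddm1, the median position was 0.293 and the lowest 0.0198, so that 0 lay below the pair. Without ddm1 library 3, the pair's position was 0.00965, the median of the 1241 loci 0.297, and 1 of the 74 loci past 100 CPM lay below the pair. That locus was AT1G35647, an annotated pseudogene at 0.00228, named here after its values were seen. The pair therefore lay above every wild-type library in the F1, at a small part of the distance to ddm1.

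**Figure D3:**
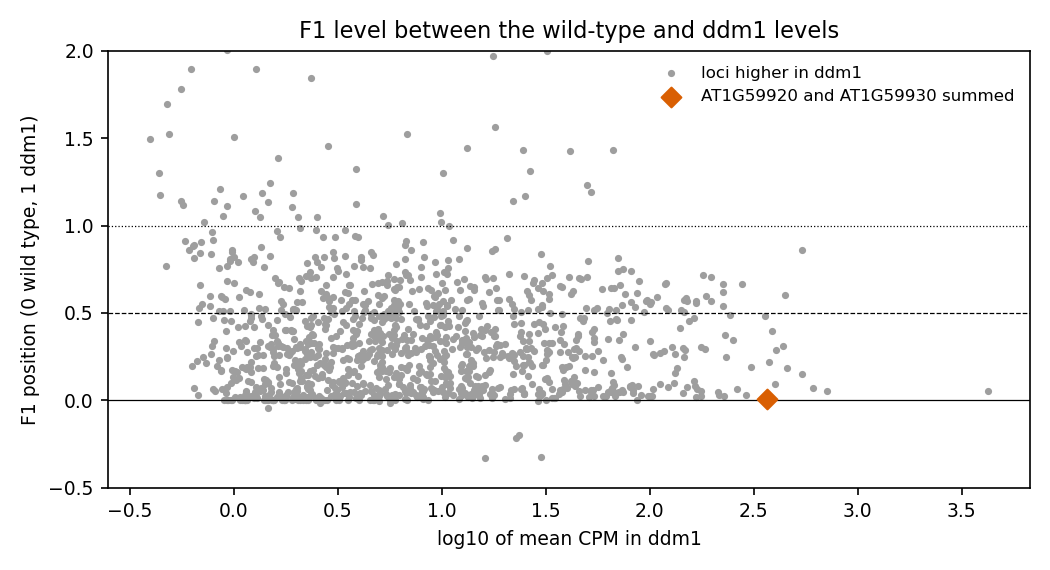
F1 position of each locus called higher in ddm1 (log2 fold change over the wild type of 1 or more), against log10 of its mean CPM in ddm1. The orange diamond is the sum of both loci at 0.00677, and lines mark positions 0, 0.5 and 1. The plot runs from -0.5 to 2.0, which leaves out 10 loci. The pair lies just above the line at 0, and the 77 other loci with at least 100 CPM in ddm1 lie higher, from 0.0198 upward. Without ddm1 library 3, not plotted, 1 of 74 such loci lay below the pair.

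The loci whose log2 CPM followed AT1G59930 most closely over the 9 libraries were all annotated pseudogenes with the product "uncharacterized protein". They were AT1G36680 (Pearson r = 0.992), AT3G33160 (0.991), AT4G07650 (0.988), AT5G31855 (0.988) and AT3G42653 (0.987). AT3G33160 had 0 counts in the wild-type libraries, 2, 5 and 3 in the F1, and 192, 148 and 118 in ddm1. AT1G36680 had 10, 6 and 10 in the wild type, 13, 16 and 25 in the F1, and 137, 119 and 93 in ddm1. These values had the same group order as AT1G59930, with a smaller ratio of ddm1 to F1.

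For AT1G59920 the closest loci were AT4G07360, AT4G08078, AT3G32000, AT3G33197 and AT4G07491, each at r = 0.971. They too were annotated pseudogenes, and 4 of the 5 had counts in ddm1 libraries only. AT3G33197 had 1 count in 1 F1 library and 118, 56 and 90 in ddm1. The members correlated with each other at r = 0.919. Correlations over 3 groups of libraries reflect the group means above all, and the members share reads.

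AT5G35120, the relative on chromosome 5, was also seen in ddm1. Its estimated counts were 0 in each wild-type library, 0, 0 and 3 in the F1, and 7, 6 and 119 in ddm1. All ddm1 libraries had more counts than any wild-type or F1 library, but library 3 held nearly all of them, so no mean is compared. Of the 20 words of 31 bases shared with the chromosome 5 copy, 3 lay in the annotated AT5G35120. How far reads of that copy were counted for the pair, or the reverse, was not tested.

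Few other MADS-box genes had enough counts in these leaves to be tested. The family lists held 119 other loci, of which 117 were in the tables, 66 had 0 counts in all libraries and 22 passed the filter on low counts. In ddm1 against wild type, edgeR called 0 higher and 1 lower, against 6.87% and 0.500% of all tested loci, with 1 at an unadjusted p under 0.05, and DESeq2 called 1 higher (AGL36) and 1 lower. In F1 against wild type, edgeR called 0 higher and 1 lower, against 13.5% and 9.66%, with 3 at an unadjusted p under 0.05, and DESeq2 called 0 higher and 2 lower. In ddm1 against F1, edgeR called 0, against a background of 16.5%, with 0 at an unadjusted p under 0.05, and DESeq2 called 1. DESeq2 gave an adjusted p to 36, 29 and 28 of the listed loci in these contrasts in turn. Over all loci it called 1760 of 22473, 5389 of 20618 and 4370 of 20155. Without F1 library 3, edgeR called 2 for F1 against wild type and 1 for ddm1 against F1. The median log2 fold changes of the 22 loci were -0.06, 0.03 and -0.09 for the contrasts in that order, beside 0.03, 0.12 and 0.01 for all tested loci.

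The gene called lower was FLC, a MIKC-class repressor of flowering. Its counts were 58, 84 and 61 in the wild type and 0 in each F1 and ddm1 library. Its level was at least 58.6-fold lower in the F1 (edgeR adjusted p = 0.00215) and at least 58.4-fold lower in ddm1 (edgeR adjusted p = 0.00274) than in the wild type, against a floor of 3 counts over the group. These calls were kept when any 1 of the 9 libraries was left out. FLC was thus at 0 both in the F1, where the pair was low, and in ddm1, where it was high.

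Among type I genes, the class to which PHERES belongs, 58 loci were in the lists and AGL62 and AGL87 alone had enough counts to be tested. AGL62, a regulator of endosperm development, had 3, 7 and 26 counts in the wild type, 12, 36 and 21 in the F1, and 16, 13 and 1 in ddm1. AGL87 had 43, 48 and 14 in the wild type, 3, 0 and 9 in the F1, and 18, 3 and 22 in ddm1. Neither was called by edgeR in any contrast. The closest adjusted p was 0.0685, for AGL87 in F1 against wild type, where the log2 fold change was -2.98 (SE 1.05).

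The other type I genes of highest mean level were near 0. AGL36, of the gamma class, had 0 counts in the wild type, 1, 0 and 0 in the F1, and 33, 7 and 1 in ddm1, too few for the filter. AGL80, a regulator of the central cell, had at most 13 counts in a library. AGL39 and AGL40 of the alpha class had at most 3, and AGL53, AGL81 and AGL77 of the beta class at most 7, 2 and 1. Genes of the gamma class have near copies among themselves, so single values of this kind are uncertain.

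Among the MIKC star genes, AGL65, known from pollen, was at 4.13 ± 0.899 CPM (SD, n = 3) in the wild type, 5.29 ± 1.18 in the F1 and 4.71 ± 1.25 in ddm1. AGL30, of the same class, had 1.97 ± 0.373, 2.33 ± 1.0 and 1.66 ± 0.192 CPM, and AGL94 at most 21 counts in a library. AT2G41440 and AT3G12510, of no named class, had 1.09 ± 0.44 and 0.788 ± 0.491 CPM in the wild type and 2.00 ± 0.831 and 0.576 ± 0.0963 CPM in ddm1. AGL94 was not tested, and edgeR called no contrast for the other genes.

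Genes on either side of the pair were compared in the same way. Of 32 annotated loci within 50 kb, 25 were in the tables, 6 had 0 counts in all libraries and 14 were tested. In ddm1 against wild type, edgeR called 0 of the 14, against a background of 7.37%, with 2 at an unadjusted p under 0.05. DESeq2 called 1 of 18, against 1760 of 22473 over all loci. Without ddm1 library 3, edgeR called 2. The median log2 fold change was 0.00, and leaving aside AT1G59950 the values ran from -0.58 to 1.0. The nearest neighbours were AT1G59910, a formin-like actin-binding protein, at 2156 bp, and ARR3, a cytokinin response regulator, at 4101 bp. AT1G59910 had a log2 fold change of -0.58 (SE 0.59, edgeR adjusted p = 0.826), and ARR3 had 1 count in 1 wild-type library and 0 elsewhere.

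Among the tested neighbours, AT1G59950, an oxidoreductase-like gene 6517 bp from the pair, was the exception in level. It had 0 counts in each wild-type library, 45, 11 and 11 in the F1, and 63.7, 17 and 0 in ddm1. Its F1 mean of 1.25 CPM was at least 27.2-fold higher than wild type (edgeR adjusted p = 0.0432), and its ddm1 mean of 1.22 CPM at least 26.6-fold higher, which edgeR did not call (adjusted p = 0.111). Unlike the pair, its F1 and ddm1 means were close, at a log2 fold change of 0.00 (SE 1.16). The call in the F1 did not hold in 8 of the 9 fits that each left out a library, with adjusted p up to 0.116. Some untested neighbours also had 0 counts in each wild-type library but counts elsewhere. AT1G60020 had 12, 0 and 0 in the F1 and 11, 14 and 4 in ddm1. AT1G59860 had 0 in each F1 library and 7, 9 and 0 in ddm1. AT1G59850 had 0, 0 and 5 in the F1 and 0, 0 and 1 in ddm1. AT1G59865 showed no clear direction, with 18, 0 and 0 in the wild type, 0, 3 and 1 in the F1, and 9, 2 and 0 in ddm1.

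In F1 against wild type, 2 neighbours were called higher and 2 lower, against a background of 13.5% and 9.66%. The higher were AT1G59950 and PEN3, a plasma membrane transporter of defence, with a log2 fold change of 1.71 (SE 0.53, edgeR adjusted p = 0.045). The lower were ARL2, a J-domain protein of root gravitropism, at -1.62 (SE 0.36, edgeR adjusted p = 0.0121), and AT1G60000, an RNA-binding protein, at -1.65 (SE 0.41, edgeR adjusted p = 0.019). ARL2 kept its call when any 1 library was left out. PEN3 lost it in 7 and AT1G60000 in 4 of the 9 cases, with adjusted p up to 0.168 and 0.0643.

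In ddm1 against F1, 2 neighbours were called higher and 1 lower, against 10.3% and 6.21% of all tested loci. ARL2 was higher by 1.56 (SE 0.36, edgeR adjusted p = 0.0215) and AT1G59970, a matrixin-type metalloprotease, by 1.29 (SE 0.39, edgeR adjusted p = 0.0486) on the log2 scale. ALA3, a phospholipid-translocating ATPase, was lower at -0.72 (SE 0.21, edgeR adjusted p = 0.0474). In the 9 fits that each left out a library, ARL2 kept its call in 6, AT1G59970 in 2 and ALA3 in 1, and without F1 library 1 or ddm1 library 1 there were 0 calls. The pair's own value in this contrast was 6.86.

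**Figure D4:**
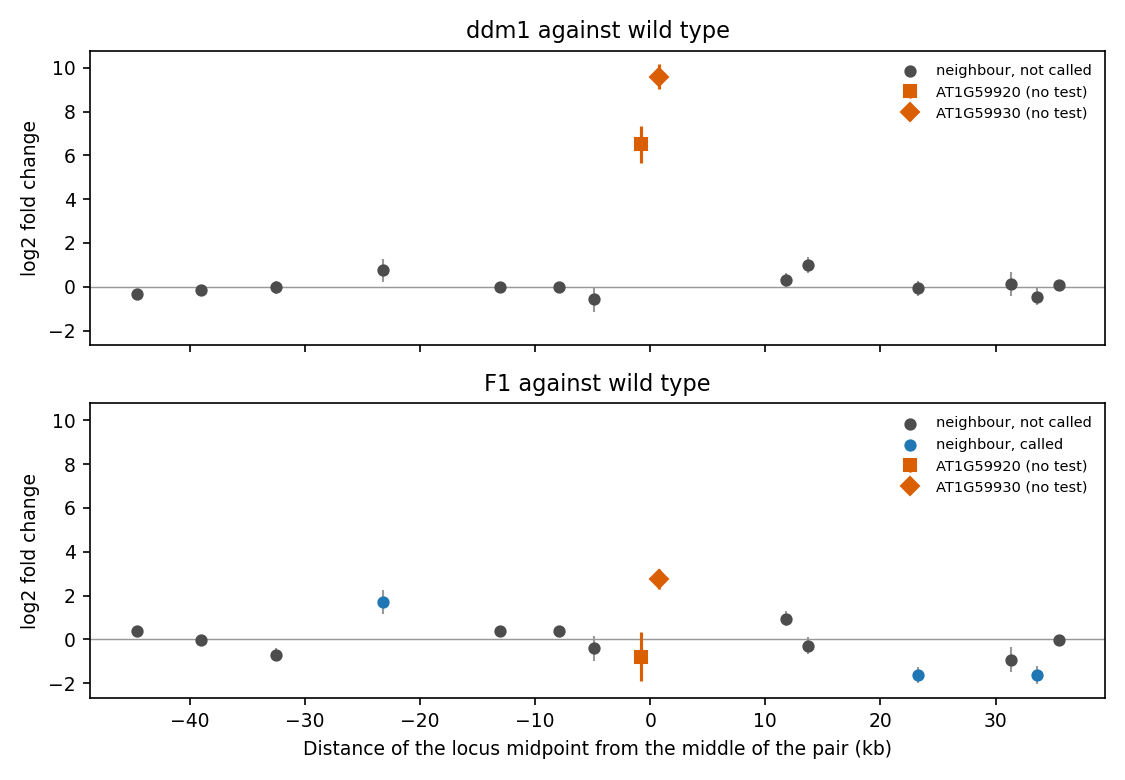
Log2 fold change with its SE for the tested loci within 50 kb, by distance in kb of the locus midpoint from the middle of the pair. The upper panel shows ddm1 against wild type and the lower F1 against wild type. AT1G59950, at 0 counts in the wild type, is left out because its fitted fold change depends on the prior count. The members stand at 6.50 and 9.60 in the upper panel, above all neighbours plotted there. The fitted value of AT1G59950, not plotted, was 7.63 (SE 2.18) for ddm1 against wild type.

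DDM1 itself (AT5G66750) had 3, 12 and 5 counts in the wild type, 2, 0 and 8 in the F1, and 1, 2 and 2 in ddm1, too few to check the labels. Organelle loci took 64.7% to 72.8% of the counts of each library. The summed level of 8 leaf photosynthesis markers was 8692 to 15853 CPM in the wild type, 7521 to 15433 in ddm1 and 1860 to 2551 in the F1, and each was detected in the tables. Of 12 seed and endosperm markers, 9 were at 0 in every library, among them the storage protein genes SESA1 to SESA4, CRA1 and CRU3, and the sum reached at most 1.28 CPM. FWA, an imprinted gene silenced by methylation in leaves, had 29, 2 and 19 counts in ddm1 and 0 elsewhere. The sum of 7 flower and pollen markers was 0.629 to 12.8 CPM in the wild type, 1.03 to 2.96 in the F1 and 2.77 to 6.88 in ddm1, and that of 5 root markers 8.96 to 19.7 CPM over all libraries, with WER, PLT1 and PLT2 at 0. In such bulk samples, fewer cells of a type and less RNA per cell cannot be told apart, and the part of the lower leaf markers of F1 in its other values was not tested.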

How the data were processed

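Directional libraries of rRNA-depleted leaf RNA were read as single-end 50-base reads, per the labels' protocols. The authors deposited estimated counts and TPM for each target, with kallisto's columns per the file headers and kallisto 0.46.0 named by the submitters' processing notes. Those notes list DESeq2 1.22.2, R 3.5.1, R 3.6.1, STAR, deepTools and TAIR10 without saying what each did. The sources used here do not give the kallisto index or its fragment length and strand options, so reads shared by near copies were divided by an estimate.

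Of 33602 targets, 32835 matched a RefSeq TAIR10.1 locus. Estimated counts were rounded and tested with edgeR 4.0.16 in R 4.3.3 (quasi-likelihood F test, robust, TMM, filterByExpr, all 9 libraries in 1 fit, no covariate). P-values were adjusted by Benjamini-Hochberg over 18216 loci, with calls at an adjusted p under 0.05. SEs came from the F statistic. DESeq2 1.42.0 was an alternative. CPM totals included organelle loci, and precision rests on the 5212809 to 7574828 nuclear counts of a library. Floors of 3 counts per group cover counting error only. Correlations used log2 CPM with a prior count of 2. Sequences came from RefSeq and were aligned with BLAST 2.17.0 (E value 1e-10, word size 7).

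The members and lists were chosen with earlier results of these data known. Named were the members, called neighbours within 50 kb and the nearest on each side, called MADS-box genes or else the 3 of highest level in a class, the 5 loci most correlated with each member, and the relatives aligned by coding sequence. The sources used here name no growth or sequencing batches.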

Additional observations from a re-analysis of the deposited data

How the results depend on the processing

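The level of both loci summed kept its direction in every alternative run (other size factors, no filter, 2-group fits, organelle loci left out, replicate block, DESeq2, TPM, each library left out). Without single libraries its log2 fold change ran from 8.60 to 9.31 for ddm1 against wild type, 2.01 to 2.47 for F1 against wild type and 6.35 to 7.15 for ddm1 against F1. The ranges were 9.10 to 9.89, 2.43 to 2.98 and 6.33 to 7.12 for AT1G59930, and 5.89 to 7.18, -1.47 to -0.10 and 6.73 to 7.95 for AT1G59920. With both loci as 1 feature, AT1G59920 took 9.10 for ddm1 against wild type and turned from -0.79 to 2.24 for F1 against wild type, and AT1G59930 took 2.24 for the latter, by construction of the sum. The F1 position moved from 0.00677 to 0.00965 without ddm1 library 3, an alternative chosen after seeing the data.

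DESeq2 called 2 of 36, 2 of 29 and 1 of 28 MADS-box genes for ddm1 against wild type, F1 against wild type and ddm1 against F1. Its calls over all loci were 1760 of 22473, 5389 of 20618 and 4370 of 20155. The MADS-box calls were FLC in the first and second contrasts, with AGL36, AGL87 and AG. Of 18 neighbours, DESeq2 called 1, AT1G59950, for ddm1 against wild type. Without the filter, edgeR called 2 neighbours for F1 against wild type and 1 for ddm1 against F1. The cause was not tested. With the replicate number as a block, 0 neighbours and 1341 loci were called for ddm1 against F1 (3007 without it). Same-numbered libraries deviated from their group means with correlations of -0.425 to 0.202, so the numbers were not taken to pair the plants.

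Leaving out single libraries gave 1118 to 1580 calls over all loci for ddm1 against wild type, 2395 to 5214 for F1 against wild type (fewest without F1 library 1) and 939 to 3427 for ddm1 against F1 (fewest without F1 library 1). It gave 1 to 1, 1 to 2 and 0 to 1 MADS-box calls, and 0 to 2, 1 to 4 and 0 to 3 neighbour calls, the 2 for ddm1 against wild type without ddm1 library 3. Depth limits the wild-type split of the pair, which rests on a handful of reads.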
